A study of Mus musculus with 12 samples.

Results

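The regions described here are 7659 intergenic accessible sites that were listed as reproducible peaks in mouse embryonic fibroblasts (MEFs) and not in mouse embryonic stem cells (mESCs), out of 91354 peaks in the BGI peak set of both cell types. The sites were selected on the measured peak calls: each overlapped by at least 1 bp a listed MEF peak on both sequencing platforms and no listed mESC peak on either platform, overlapped no annotated gene body, and lay more than 1 kb and at most 100 kb from the nearest transcription start site (TSS). Of the 91354 peaks, 29246 overlapped no gene body, 25802 of these lay within the distance limits, 12853 of these were on both MEF lists and 7659 on neither mESC list. A further 517 such peaks were on 1 mESC list only and 1717 were on 1 MEF list only, and these were not counted. The choice used the contrast of MEFs with mESCs, so the differences between the cell types at these sites are given as a description from which nothing is inferred.

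Omni-ATAC-seq was used, an assay in which Tn5, a transposase, cuts accessible chromatin and leaves adapters at the cuts. MEFs of a C57/Bl6 background were sorted as THY1+ and mESCs of the same background as THY1-/SSEA1+/EPCAM+, with no treatment. The 6 libraries (MEFs 1, 2 and 4 and mESCs 1, 3 and 5) were each sequenced on a BGI DNBSEQ-G400 and an Illumina HiSeqX10 instrument, giving 12 samples in 4 groups of 3. The libraries of a cell type are biological replicates according to the methods, whereas the paired BGI and Illumina samples are readings of the same library. Reads counted in the peak set ranged from 20085886 to 21831840 in the MEF samples and from 15860985 to 17089560 in the mESC samples, and levels are given below as CPM, the reads of a site scaled to a common total of these reads. Reads are not independent molecules, so intervals on reads cover counting error only.

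Intergenic sites that are open in one cell type and closed in another are commonly enhancers, which act on promoters at a distance and carry clustered binding sites for transcription factors. In fibroblasts such elements are known to be bound by AP-1, a dimer of FOS and JUN family proteins, together with TEAD and RUNX factors. CTCF, by contrast, binds insulator and loop anchor sites that are often shared between cell types. Open chromatin alone does not show that a site is an enhancer or which gene it acts on, and the gene nearest to a site is used below only as a name.

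To show what these sites look like, the central 300 bases of 6 of them are printed from the plus strand of the RefSeq GRCm38 reference, in lower case with every match to AP-1 (TGANTCA), TEAD (GGAATG) or RUNX (TGTGGTT) on either strand in capitals. The first 3 had the highest mean CPM in MEFs on BGI. The Gm8748 window held no match to any of the 3 motifs, the D7Ertd443e window held none and the Cd44 window held 1 TEAD match.

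Gm8748 site, chr8:104022996-104023295: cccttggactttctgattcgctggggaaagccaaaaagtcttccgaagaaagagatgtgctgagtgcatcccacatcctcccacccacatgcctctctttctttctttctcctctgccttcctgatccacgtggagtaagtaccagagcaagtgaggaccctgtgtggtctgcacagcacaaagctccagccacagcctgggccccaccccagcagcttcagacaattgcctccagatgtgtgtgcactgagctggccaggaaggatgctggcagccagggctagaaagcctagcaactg

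D7Ertd443e site, chr7:134261304-134261603: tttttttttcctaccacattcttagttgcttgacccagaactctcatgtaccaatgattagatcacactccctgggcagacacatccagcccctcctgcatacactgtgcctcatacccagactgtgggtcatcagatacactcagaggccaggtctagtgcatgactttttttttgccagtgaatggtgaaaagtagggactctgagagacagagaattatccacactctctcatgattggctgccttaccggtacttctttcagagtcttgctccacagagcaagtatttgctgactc

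Cd44 site, chr2:102943965-102944264: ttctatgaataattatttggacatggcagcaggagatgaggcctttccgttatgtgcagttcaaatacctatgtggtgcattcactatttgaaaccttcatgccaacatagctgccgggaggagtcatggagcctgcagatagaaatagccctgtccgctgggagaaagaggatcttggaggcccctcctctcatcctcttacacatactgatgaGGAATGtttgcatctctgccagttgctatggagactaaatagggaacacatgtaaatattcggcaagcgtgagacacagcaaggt

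The next pair were sites with the most AP-1 matches found in a site, 5 each. The Gm43008 window held 3 of its 5 and the Gm43718 window all 5. The last site, upstream of the olfactory receptor gene Olfr456, held 4 AP-1 matches, of which 2 lay in the window beside 1 TEAD match, and was added after its values were seen because, of the sites with a mean of at least 10 CPM in MEFs on BGI, it had the largest spread between MEF libraries when the smaller of a site's BGI and Illumina spreads was taken.

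Gm43008 site, chr3:39269434-39269733: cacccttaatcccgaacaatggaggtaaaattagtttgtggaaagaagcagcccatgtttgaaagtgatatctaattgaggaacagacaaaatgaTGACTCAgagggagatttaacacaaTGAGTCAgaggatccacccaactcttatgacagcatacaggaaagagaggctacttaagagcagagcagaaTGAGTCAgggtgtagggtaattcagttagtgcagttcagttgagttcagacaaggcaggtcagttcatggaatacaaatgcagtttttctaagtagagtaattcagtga

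Gm43718 site, chr5:13667439-13667738: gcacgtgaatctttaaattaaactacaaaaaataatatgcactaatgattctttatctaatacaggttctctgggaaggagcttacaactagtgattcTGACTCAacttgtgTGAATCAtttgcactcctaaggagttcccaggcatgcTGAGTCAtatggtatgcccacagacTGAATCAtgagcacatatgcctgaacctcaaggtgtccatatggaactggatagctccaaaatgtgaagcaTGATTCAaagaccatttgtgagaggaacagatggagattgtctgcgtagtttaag

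Olfr456 site, chr6:42489971-42490270: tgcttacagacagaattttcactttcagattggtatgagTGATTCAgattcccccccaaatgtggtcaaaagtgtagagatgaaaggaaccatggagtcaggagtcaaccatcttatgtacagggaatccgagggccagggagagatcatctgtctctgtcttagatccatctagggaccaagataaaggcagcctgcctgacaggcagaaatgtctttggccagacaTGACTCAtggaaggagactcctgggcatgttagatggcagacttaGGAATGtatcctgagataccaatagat

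AP-1 was the commonest of the 15 motifs searched in the sites. Of the 7658 sites with reference sequence, 3686 (48.1%) held TGANTCA, beside 25.2% of all peaks, 19.7% of 9119 mESC-listed intergenic sites and 14.9% of 15313 windows of the same length 2 kb to either side of the sites. Among the sites, 12.4% held at least 2 AP-1 matches, beside 4.79% of all peaks. TEAD matches (GGAATG) were in 45.2% of the sites and 26.0% of the side windows, and RUNX matches (TGTGGTT) in 16.3% and 11.6%. C/EBP (TTGCNNAA) differed less, with 22.8% of the sites and 20.5% of the side windows. MEF-listed sites within introns held AP-1 at 46.1%, TEAD at 44.5% and RUNX at 17.1%, values close to those of the intergenic sites. These shares are descriptions of sequence, with no test, and a match is not a bound site.

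The motifs of ESRRB, SOX and OCT factors, which act in pluripotent cells, were no commoner in the sites than beside them. ESRRB (AAGGTCA) was in 7.21% of the sites, 9.94% of the side windows and 16.4% of the mESC-listed intergenic sites, and the respective values were 6.67%, 7.99% and 11.4% for SOX (ACAATGG) and 10.2%, 10.2% and 13.4% for OCT (ATGCAAA). KLF (GGGCGGG) was in 5.18% of the sites, 3.29% of the side windows and 20.2% of all peaks. The E-box CACCTG, which ZEB and SNAI repressors of epithelial genes bind, was rarer in the sites (17.3%) than in the windows beside them (29.2%), the mESC-listed intergenic sites (43.0%) or all peaks (31.9%), and as frequent in the MEF-listed intronic sites (17.3%). The CTCF core was in 5.11% of the sites and in 26.4% of the intergenic sites listed in both cell types. Among the other motifs, the motif AGATAAG of GATA factors was in 7.59% of the sites, FOX (TGTTTAC) in 7.01%, ETS (CCGGAAG) in 2.56%, CREB (TGACGTCA) in 0.77% and the full palindromic NFI site in 0.131%, which is 10 sites. In the side windows the respective shares were 6.73%, 7.15%, 1.8%, 0.346% and 0.0392%. The median GC content of the sites was 46.2%, that of the side windows 44.4%, that of the mESC-listed intergenic sites 49.4% and that of all peaks 51.0%, and the part of base composition in these shares was not tested.

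**Figure D1:**
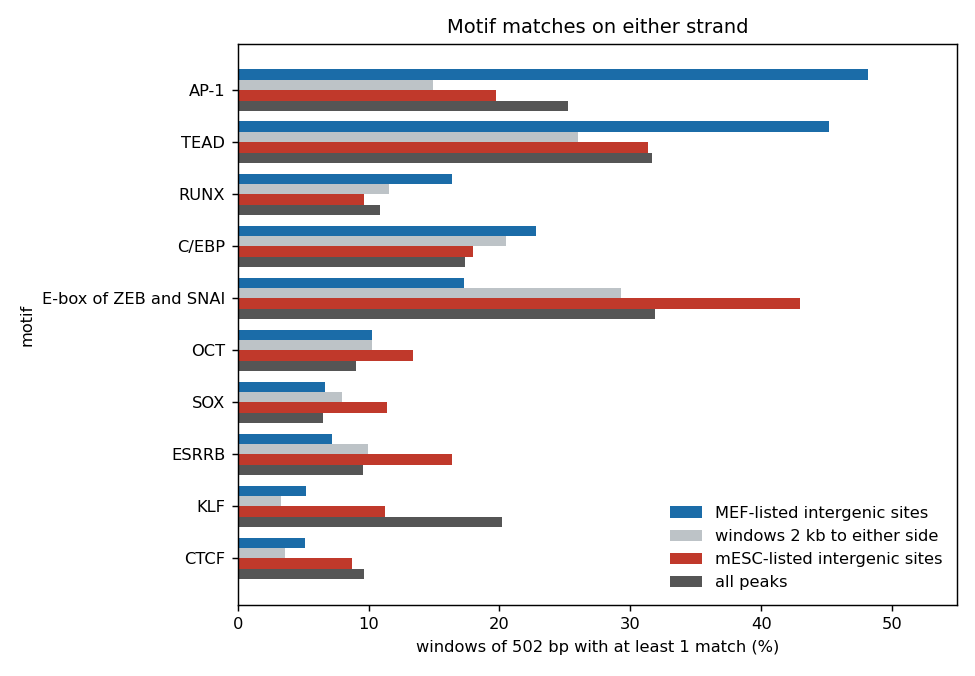
Share of peak-length windows with at least 1 match to a motif on either strand (x axis, percent) for 10 motifs (y axis), in the sites, in windows 2 kb to either side, in mESC-listed intergenic sites and in all peaks. AP-1 stood at 48.1% in the sites against 14.9% beside them, whereas the ZEB and SNAI E-box stood at 17.3% against 29.2%.

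Within the sites the AP-1 matches gathered at the centre, a property that the choice of sites did not use. There were 8.17 AP-1 matches per 100 sites in the central 20 bp and 0.575 and 0.731 in the outermost bins on either side. In the mESC-listed intergenic sites AP-1 matches were fewer and also central, at 2.01 per 100 at the centre and 0.307 and 0.614 at the edges, and in the intergenic sites listed in both cell types they were 2.68 at the centre and 0.601 and 0.515 at the edges. TEAD matches rose towards the centre of the MEF-listed sites as well, from 1.07 and 1.25 to 5.41 per 100 sites, and RUNX matches from 0.444 and 0.496 to 1.29. TEAD stood at 2.61 at the centre of the mESC-listed intergenic sites and at 0.987 and 1.02 at their edges. The E-box CACCTG ran the other way, from 1.15 and 1.20 per 100 sites at the edges to 0.313 at the centre, whereas in the mESC-listed intergenic sites it was 2.75 at the centre. The MEF-listed intronic sites had much the same central values, at 7.64 per 100 for AP-1, 5.53 for TEAD, 1.40 for RUNX and 0.286 for the E-box. CTCF cores, though few, also lay centrally, at 0.783 per 100 sites in the central bin.

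**Figure D2:**
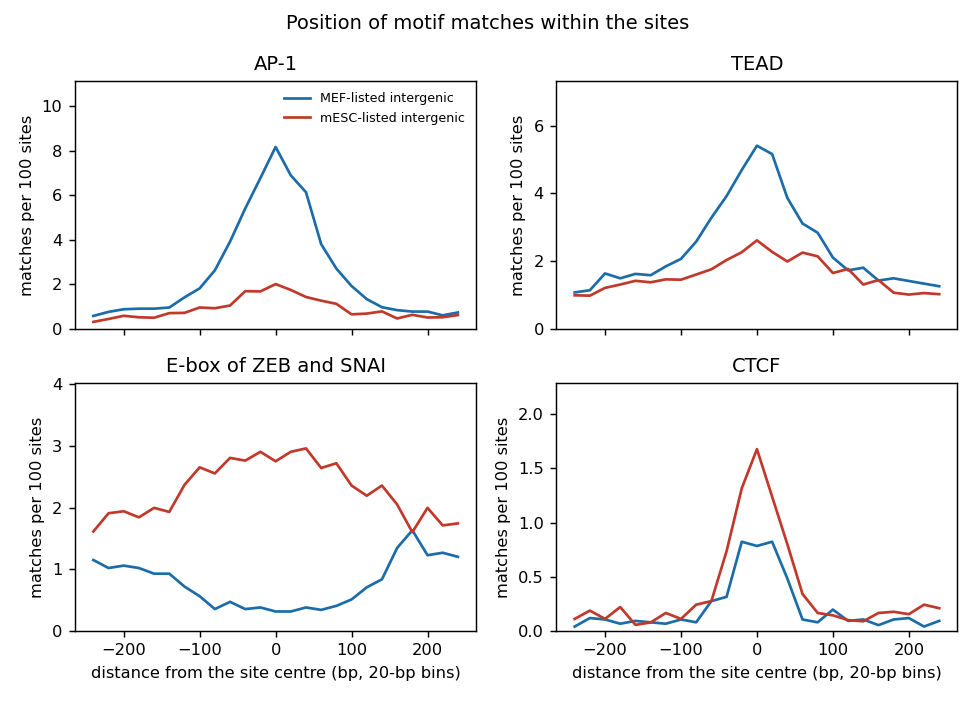
Motif matches per 100 sites (y axes, each panel with its own scale from 0) by distance from the site centre in 20-bp bins (x axes), for the MEF-listed and mESC-listed intergenic sites. AP-1 and TEAD peaked at the centre of the MEF-listed sites, at 8.17 and 5.41 per 100, and the E-box was lowest there, at 0.313.

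Motif content varied with how open a site was in MEFs. Among the 1915 sites with the highest mean MEF CPM on BGI (13.3 to 72.5), 52.4% held an AP-1, 50.8% a TEAD, 19.8% a RUNX and 2.45% a CTCF match. Among the 1915 lowest (3.32 to 7.23) the shares were 45.7%, 39.4%, 12.9% and 10.2%. The AP-1, TEAD and RUNX shares were thus larger, and the CTCF share smaller, among the more open sites. By AP-1 matches, the median level was 9.14 CPM over 3972 sites with none, 9.54 over 2734 sites with 1, 9.98 over 824 sites with 2, 12.9 over 106 sites with 3 and 7.90 over 22 sites with 4 or 5. The level thus did not rise steadily with the number of matches.

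The levels of the sites are described here with the contrast they were chosen on. Median CPM over the sites was 9.69, 9.49 and 8.96 in MEFs 1, 2 and 4 on BGI and 8.84, 8.54 and 8.09 on Illumina. In mESCs 1, 3 and 5 it was 1.14, 0.946 and 0.994 on BGI and 0.929, 0.819 and 0.861 on Illumina. In reads, the median site held 167 to 210 in a MEF sample and 14 to 18 in an mESC sample. The highest single value was 80.2 CPM in MEFs and 38.1 CPM in mESCs. The ranges from the 25th to the 75th percentile of the sites did not overlap between the cell types in any sample.

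**Figure D3:**
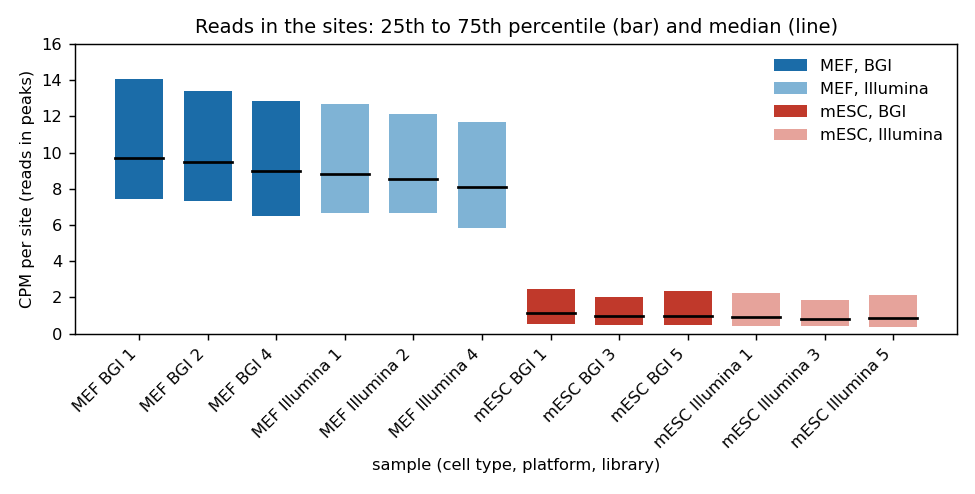
CPM per site (y axis, from 0) in each of the 12 samples (x axis), with the 25th to 75th percentile of the sites as a bar and the median as a line. Medians lay between 8.09 and 9.69 in the 6 MEF samples and between 0.819 and 1.14 in the 6 mESC samples.

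The median fitted log2 difference of mESC minus MEF was -3.47 on BGI (25th to 75th percentile -4.45 to -2.29) and -3.47 on Illumina. In the edgeR fit across all peaks on BGI, 7525 of the 7659 sites fell among those called lower in mESCs, which were 43.2% of all 91354 peaks, a count that the choice of sites fixed and that is no test of them. For 7312 sites (95.5%) every MEF sample lay above every mESC sample over both platforms, beside 33800 (37.0%) of all 91354 peaks. The count at the sites follows from their choice as well.

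The label of these sites as closed in mESCs held in full for 4365 of them, which overlapped no called peak in any mESC sample at the loose calling threshold. The remaining 3294 (43.0%) overlapped a loose call in at least 1 mESC sample, and 1590 (20.8%) in all 6. The median mESC level on BGI was 0.556 CPM at sites with no call and 3.82 CPM at those called in all 6, and the median MEF levels were 9.22 and 9.13 CPM. Sites with a call in all 6 mESC samples also differed in sequence and position, with CTCF matches in 14.0% against 1.81%, AP-1 in 38.4% against 49.5% and KLF in 9.94% against 2.86%, and a median distance to the nearest TSS of 11922 bp against 20401 bp. The sites are therefore called MEF-listed rather than open only in MEFs.

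The fitted level was higher in mESCs at 11 sites on BGI. Of these, 3 were called higher in mESCs in the edgeR fit, as were 37355 of all 91354 peaks. The site 17948 bp from Gm23232 and 19374 bp upstream of Trim71, which encodes an RNA-binding protein of pluripotent cells (chr9:114583743-114584244), held 8.08, 9.49 and 8.66 CPM in MEFs 1, 2 and 4 and 35.3, 34.4 and 36.3 CPM in mESCs 1, 3 and 5 on BGI, a log2 difference of 1.95 ± 0.114 (SE). All mESC values lay above all MEF values there, and a listed mESC peak began 27 bp away without touching it. The other two, named after their values were seen, were near Mgat3 and Dusp6, with log2 differences of 0.50 and 0.39 and listed mESC peaks 4 and 5 bp away. Of all sites, 301 (3.93%) had a listed mESC peak within 500 bp, and the median distance to one was 16548 bp.

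The highest site lay 47753 bp from Gm8748 and 78229 bp upstream of Cdh5, the vascular cadherin gene (chr8:104022895-104023396). It held 77.7, 69.2 and 70.6 CPM in MEFs 1, 2 and 4 on BGI and 67.8, 63.6 and 65.1 on Illumina, against 1.05 to 2.11 CPM over the 6 mESC samples. The second, 7136 bp from D7Ertd443e (chr7:134261203-134261704), held 80.2, 76.8 and 50.8 CPM in MEFs on BGI and 3.04 to 3.91 CPM in mESCs. In this site library 4 stood below the other two MEF libraries, on Illumina as well with 43.6 CPM against 71.1 and 61.7.

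The third lay 42199 bp upstream of Cd44, which encodes the hyaluronan receptor of mesenchymal cells (chr2:102943864-102944365), at 69.4, 64.9 and 65.2 CPM in MEFs on BGI and 1.43 to 3.09 CPM in mESCs. It held 4 RUNX matches in all, none of them in the window printed above. The others lay 14248 bp from Gm37505, 1798 bp upstream of Cttnbp2nl and 29363 bp from Ccdc42, with mean MEF levels of 66.1, 63.5 and 62.8 CPM on BGI. At the Cttnbp2nl site mESCs held 5.38 to 6.83 CPM on BGI, the highest level in mESCs among these 6 sites.

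Among sites with at least 10 CPM in MEFs, the one with the largest fitted difference lay 73860 bp from Gm4821 and 78888 bp upstream of Tnfsf11, the osteoclast factor RANKL (chr14:78386931-78387432). It held 802 reads over the 3 MEF samples and 0 over the 3 mESC samples on BGI. On Illumina the mean level there was 9.42 CPM in MEFs and 0.288 CPM in mESCs (log2 difference -5.08), with 0.372 and 0.492 CPM in mESCs 1 and 5. The site 14168 bp upstream of Rubcnl (chr14:75001358-75001859) held 1091 reads in MEFs and 3 in mESCs on BGI, a CPM ratio of 287 (exact 95% interval 98.0 to 1395), and the site near A330069K06Rik (chr3:80003301-80003802) held 908 and 2, a ratio of 359 (99.0 to 2966). These sites were picked for their BGI values, and on Illumina the mean levels were 14.5 and 0.078 CPM at the first (log2 difference -7.43) and 12.2 and 0.202 CPM at the second (-5.93). In all, 4 sites had 0 reads over the 3 mESC BGI samples.

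The choice of sites kept them out of gene bodies and at least 1 kb from a TSS, and within these limits they lay farther out than other intergenic peaks. The median distance to the nearest TSS of any annotated gene was 17185 bp (25th to 75th percentile 7656 to 34958), compared with 10947 bp for the mESC-listed and 9277 bp for the intergenic sites listed in both cell types. Within 10 kb of a TSS lay 32.2% of the sites, against 46.8% and 52.7%. Over all 25802 intergenic peaks within the distance limits the median was 12340 bp, and 42.8% lay within 10 kb. The nearest TSS was that of a protein-coding gene for 36.4% of the sites, of a lincRNA for 22.6% and of a processed pseudogene for 19.99%. To the nearest protein-coding TSS the median was 43746 bp, and 5543 sites (72.4%) had one within 100 kb.

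At the distance limits, the nearest members on the inside were 1004 and 1007 bp from a TSS, near Gm20070 and Gm28183, with mean MEF levels of 4.93 and 15.2 CPM on BGI. The peaks just outside lay 996 bp from the TSSs of Gm12602 and Hilpda, with 7.96 and 6.57 CPM. At the far limit the members were 99895 and 99962 bp away, with 16.1 and 7.96 CPM, and the peaks beyond it 100092 and 100103 bp away, with 28.2 and 5.31 CPM.

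By chromosome, the density ran from 2.19 sites per Mb on chromosome 14 to 3.77 on chromosome 11, with 0.602 on chromosome X. On chromosome X 7.61% of all peaks were members, within the range of the autosomes (6.27% to 11.5%). When sites were joined across gaps of up to a little over 12 kb, a length commonly used to stitch enhancers, 4718 (61.6%) stood alone and 255 (3.33%) fell into 42 stretches of at least 5 sites. The mESC-listed intergenic sites stood alone in 54.0% and fell into such stretches in 7.65%.

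The stretch with the most sites lay between Rxra, a nuclear receptor gene, and Col5a1, which encodes a chain of fibrillar collagen V (chr2:27802462-27875020). It held 13 sites over 72559 bp with mean MEF levels of 7.43 to 34.9 CPM and mESC levels of 0.248 to 3.98 CPM on BGI, and 8 of them held an AP-1 match. The next, 6347 to 53423 bp from Dlk1, an imprinted gene of mesenchymal progenitors (chr12:109398899-109446476), held 10 sites at 5.62 to 24.6 CPM in MEFs and 0.657 to 3.85 CPM in mESCs, of which 1 had an AP-1 match. The third lay near Hhat, an acyltransferase gene of Hedgehog secretion (chr1:192778879-192807251), with 9 sites at 6.79 to 30.8 CPM in MEFs and 3 with an AP-1 match. The share with AP-1 thus differed from stretch to stretch.

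By nearest protein-coding gene within 100 kb, the sites were named after 3343 genes, of which 2141 had 1 site, 696 had 2, 458 had 3 to 5 and 48 had 6 or more. The gene with the most was Col1a1, a chain of collagen I, with 14 sites and no mESC-listed intergenic site, followed by Col1a2 with 13 and Dlk1 and Irf2bp2 with 12 each. Gene lists of known roles, drawn up with earlier results of these data in view, are described here by counts beside the 15.2% of all 21992 protein-coding genes that had a site.

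Among extracellular matrix genes, 28 of 38 (73.7%) had a site, with a median of 13.6 CPM in MEFs. The most open of these lay 53750 bp upstream of Col1a1 (chr11:94881973-94882474), with 54.9, 51.2 and 63.9 CPM in MEFs 1, 2 and 4 on BGI and 56.0, 52.4 and 60.7 on Illumina, against 1.80 to 2.73 CPM in mESCs. A second lay 2199 bp upstream of the Col1a1 TSS, with 53.4, 50.4 and 52.1 CPM in MEFs on BGI and 2.08, 2.72 and 3.04 CPM in mESCs. Library 4 was not the lowest of the 3 MEF libraries at either site on BGI. Other genes of the list with several sites were Thbs2, which encodes a matricellular thrombospondin, with 9, and Postn, periostin, with 5.

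Among adhesion and surface genes 11 of 20 had a site, with 8 at Cd44, 6 at the collagen-binding integrin gene Itga11, 5 at S1pr3 and 2 at Thy1, the marker the MEFs were sorted on. A site 93691 bp upstream of S1pr3 held 62.5, 57.0 and 58.6 CPM in MEFs on BGI and 2.86 to 4.03 CPM in mESCs. This site had a loose call in 5 of the 6 mESC samples. Among contractile, cytoskeletal and YAP target genes 16 of 31 had a site. One 10048 bp upstream of Acta2, smooth muscle actin, held 28.9, 28.9 and 26.0 CPM in MEFs on BGI and 0.65 to 1.55 CPM in mESCs, and one 23625 bp downstream of the Tpm1 TSS held 32.9, 29.7 and 29.9 against 2.30 to 3.15.

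Growth factor and receptor genes had sites in 26 of 41 cases, inflammatory mediator genes in 15 of 24, AP-1 and related factor genes in 7 of 14 and mesenchymal transcription factor genes in 19 of 42. Near Tgfb2, a ligand of the TGF-beta pathway, a site at 62590 bp held 47.3, 43.2 and 33.4 CPM in MEFs on BGI. Upstream of Cxcl1, a neutrophil chemokine, a site at 14761 bp held 28.4, 26.0 and 29.1 CPM, and a site 62719 bp upstream of Bach1, which encodes a partner of small MAF proteins, held 30.1, 30.8 and 26.3 CPM. For Zeb2, a mesenchymal repressor, sites 46022 and 45354 bp downstream of the TSS held means of 24.98 and 18.6 CPM. In mESCs on BGI these sites held 0.236 to 3.72 CPM.

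Pluripotency genes had a MEF-listed site in 4 of 27 cases (14.8%), close to the 15.2% of all protein-coding genes, and an mESC-listed intergenic site in 22 (81.5%), beside 20.7% of all protein-coding genes. The 4 genes were Sox2, Nanog, Klf5 and Lefty1. Among AP-1 genes, 6 of 14 (42.9%) had an mESC-listed intergenic site, against 7 of 14 with a MEF-listed one. An mESC-listed site was found for 13 of 42 mesenchymal factor, 9 of 31 contractile and 11 of 41 growth factor genes. For matrix genes it was 9 of 38, for adhesion genes 5 of 20 and for inflammatory genes 4 of 24. Of these other lists, only the inflammatory one (16.7%) lay below the 20.7%. In each of them more genes had a MEF-listed site. The site 17351 bp upstream of Nanog (chr6:122689637-122690138) held 13.4, 13.8 and 7.57 CPM in MEFs and 7.63, 3.19 and 3.85 CPM in mESCs on BGI, so that mESC 1 lay just above MEF 4 and the groups overlapped. It had a loose call in all 6 mESC samples.

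Promoters of the genes named by the sites were compared with all promoters, taking for each gene the peak with the most reads within 1 kb of a TSS. These peaks are not members, but they rest on the same libraries, so the counts are a description. Of 2778 such promoters tested on BGI, 1388 (49.96%) were called higher in MEFs and 484 (17.4%) higher in mESCs by edgeR's quasi-likelihood test, where 44.1% and 22.1% of all 15130 promoters were. With 1 site the share higher in MEFs was 47.1% of 1741, with 2 it was 53.5% of 585, with 3 to 5 it was 55.3% of 405 and with 6 or more 66.0% of 47. The share for genes with an mESC-listed intergenic site was 40.1% of 3750. When the down-sampled read number was taken as the library size, the shares for genes with a site and for all promoters were 37.4% and 29.95%, and the median log2 difference over all peaks moved from -0.08 to 0.06. Of the genes with a site 13.0%, and of all promoters 7.86%, were higher in MEFs by a log2 difference of at least 1.

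Of the matrix genes with a site, 26 of 28 promoters were called higher in MEFs and 0 higher in mESCs, beside 33 of 36 over the whole list. Promoters higher in MEFs were 10 of 19 among the mesenchymal factor genes with a site (24 of 41 over the list), 17 of 26 among the growth factor genes (26 of 41) and 11 of 16 among the contractile genes (21 of 31). They were 9 of 14 among the inflammatory genes with a site (14 of 23 over the list), 8 of 11 among the adhesion genes (14 of 19) and 4 of 7 among the AP-1 genes (8 of 14). In these 6 lists the shares higher in MEFs for genes with a site thus lay close to those of the whole list. Called higher in mESCs were 1 mesenchymal factor, 2 growth factor and 2 inflammatory gene promoters with a site, beside 2 of 41, 3 of 41 and 6 of 23 over these lists. None was so called in the matrix, contractile, adhesion and AP-1 lists. Of the 4 pluripotency genes with a site, 3 promoters were higher in mESCs and 1 in MEFs, beside 23 and 3 of 27 over the list. The Acta2 promoter held 57.1, 56.6 and 52.2 CPM in MEFs and 2.46, 1.89 and 2.61 CPM in mESCs on BGI, a log2 difference of -4.64 ± 0.135 (SE; edgeR adjusted p = 5.43e-14). The Cd44 promoter differed by -3.24 ± 0.129 (SE; edgeR adjusted p = 6.94e-13) and that of Col1a1 by -1.59 ± 0.113 (SE; edgeR adjusted p = 5.99e-10). The promoter of Cttnbp2nl, beside one of the most open sites, held 53.0, 51.4 and 50.5 CPM in MEFs and 53.2, 65.8 and 58.0 CPM in mESCs (0.13 ± 0.0943 SE, edgeR adjusted p = 0.222). On Illumina it was called higher in mESCs (0.28 ± 0.0854 SE, edgeR adjusted p = 0.0052).

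Promoter peaks of cell type markers were compared on BGI as a check of the labels. Of 14 fibroblast markers 13 were called higher in MEFs, Pdgfra being the other, and of 12 mESC markers 11 were higher in mESCs and 1, Fut4, in MEFs. The macrophage genes Ptprc, Adgre1, Spi1, Itgam, Lyz2 and Tyrobp, the endothelial genes Cdh5 and Tie1, the epithelial genes Krt5, Krt14 and Trp63, the glial gene Sox10 and the muscle genes Myf5, Myog and Myh3 had no promoter peak in the set. Of the other markers of these cell types, Csf1r and Des were called higher in MEFs, whereas Cd68, Krt8, Krt18, Cldn4, Grhl2, Neurod1, Olig2, Pax6, Map2 and Myod1 were higher in mESCs. The endothelial genes Pecam1, Kdr, Tek, Esam and Erg and the neural gene Tubb3 had promoter peaks that were called neither way on BGI. Their mean MEF levels were 6.43 to 29.4 CPM. The part of such cells in the site levels was not tested.

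Among the MEF libraries, library 4 stood apart at sites with AP-1 matches. The difference between the highest and lowest library had a median of 0.41 on the log2 scale on BGI and 0.40 on Illumina. It was at least 1 on both platforms at 217 sites, and at 195 of these library 4 was the lowest on both. Of these 195 sites, 81.0% held an AP-1 match and 36.9% at least 2, beside 48.1% and 12.4% of all sites. Their TEAD share was 42.6% and their RUNX share 11.3%, beside 45.2% and 16.3%.

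The same was seen over all sites when they were ordered by AP-1 matches alone, without regard to spread. The median log2 difference of library 4 minus the mean of libraries 1 and 2 on BGI was 0.05 with no match, -0.26 with 1, -0.44 with 2, -0.52 with 3 and -0.62 with 4 or 5, over 3972, 2734, 824, 106 and 22 sites. On Illumina it was 0.03, -0.26, -0.43, -0.53 and -0.64, so that both readings of the library gave the same order. Library 4 was below the mean of the other two on BGI at 45.8% of the sites with no match and at 100% of the 22 sites with 4 or 5. For TEAD the corresponding medians were -0.15 with and -0.11 without a match. MEF-listed intronic sites had medians of 0.02, -0.24, -0.46, -0.52 and -0.57 on BGI. This is 1 library of 3, and its cause was not tested.

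**Figure D4:**
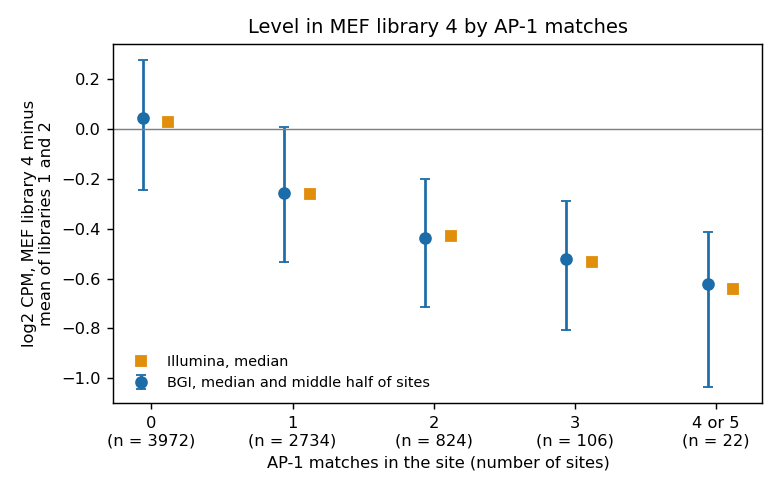
Difference in log2 CPM (with 0.5 added) of MEF library 4 minus the mean of libraries 1 and 2 (y axis) by the number of AP-1 matches in a site (x axis, with the number of sites), as the median with its 25th to 75th percentile on BGI and the median on Illumina. The medians ran from 0.05 with no match to -0.62 with 4 or 5 on BGI.

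The site near Olfr456 printed above (chr6:42489870-42490371) held 23.2, 20.7 and 6.77 CPM in MEFs 1, 2 and 4 on BGI and 25.3, 20.7 and 7.70 on Illumina. A site 21243 bp from Hspa4 (chr11:53245497-53245998) held 18.2, 15.8 and 6.12 CPM on BGI and 15.5, 13.5 and 3.58 on Illumina, and one 79040 bp from Gm24120 held 11.4, 14.4 and 4.73 on BGI. Each held at least 1 AP-1 match, and library 4 was lowest on both platforms. The named promoters of AP-1 and related genes differed in this. At Fos, an AP-1 subunit gene, library 4 was the highest, with 54.9 CPM against 38.5 and 36.4 on BGI and 54.4 against 42.6 and 40.1 on Illumina. At Bach1 library 4 was the lowest, with 31.9 against 36.4 and 37.5 on BGI and 30.3 against 31.1 and 33.7 on Illumina. At Fosl1 MEFs 1, 2 and 4 held 13.4, 11.1 and 10.2 CPM on BGI and 13.3, 9.37 and 11.4 on Illumina.

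Whether the sequencer changed the reading of the sites was asked within MEFs, where both platforms had listed every site. The sites are peaks of the BGI peak set, so that their choice drew on the BGI reads, and each measure per sample was also read at the 7644 peaks of the Illumina peak set that met the same rule, of which 7629 overlapped a site. The sites took 9.15%, 8.86% and 8.22% of the reads in peaks of MEFs 1, 2 and 4 on BGI and 8.27%, 7.998% and 7.41% on Illumina. The means were 8.74% ± 0.475 (SD, n = 3) and 7.89% ± 0.442 (SD, n = 3), higher on BGI in 3 of 3 libraries, and the difference of 0.849 percentage points did not pass an exact permutation test, taken two-sided (p = 0.2, where 3 against 3 allows 0.1 at best). As a share of the down-sampled reads the means were 3.01% and 2.76%, a difference of 0.245 percentage points (exact permutation p = 0.4), higher on BGI in 3 of 3 libraries. The exact sign-flip permutation test on the paired libraries gave p = 0.25, the smallest that 3 pairs allow. At the sites taken from the Illumina peak set the mean shares of the reads in its peaks were 8.94% on BGI and 8.01% on Illumina, a difference of 0.924 percentage points (exact permutation p = 0.2).

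Called intervals were narrower on BGI, at the sites as over all intervals. Their median width was 813, 783 and 807 bp in MEFs 1, 2 and 4 on BGI and 856, 822 and 824 bp on Illumina. The means were 801.0 ± 15.9 bp (SD, n = 3) and 834 ± 19.2 bp (SD, n = 3), and the groups did not overlap (exact permutation p = 0.1, the lowest that 3 against 3 can give). Over all called intervals of these samples the median widths were 441, 432 and 467 bp on BGI and 481, 464 and 496 bp on Illumina. The median fold enrichment at the summit was 14.9, 13.7 and 12.2 on BGI and 13.4, 12.2 and 11.4 on Illumina (exact permutation p = 0.2), higher on BGI in each library. At the sites taken from the Illumina peak set the mean of the median widths was 33.3 bp smaller on BGI (exact permutation p = 0.1), and the mean of the median fold enrichments was 13.6 on BGI and 12.3 on Illumina.

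At single sites, tested on the 7637 peaks of the MEF peak set that covered the 7659 sites, the median log2 ratio of BGI to Illumina was 0.14 (25th to 75th percentile 0.05 to 0.23), beside 0.07 over all 61891 MEF peaks. Without pairing, 1 site was called higher on BGI and 0 lower by edgeR's quasi-likelihood test, where 0.107% and 3.96% of all MEF peaks were. At an unadjusted p under 0.05 there were 273. In the same edgeR fit on the BGI peak set of both cell types, 0 sites were called higher and 2 lower, beside 0.0391% and 3.95% of its 87043 tested peaks, with 148 sites at an unadjusted p under 0.05. DESeq2 called 50 higher and 2 lower, beside 1.12% and 11.7% of the 46292 MEF peaks to which it gave an adjusted p. With the replicate block, which pairs the readings of each library, 1511 site peaks (19.8%) were called higher on BGI and 34 (0.445%) lower, beside 13.9% and 15.3% of all MEF peaks. With the replicate block and an offset for GC content, 171 (2.24%) were higher and 134 (1.75%) lower, beside 5.93% and 6.47%, and the median ratio was 0.014. Without MEF library 4 the unpaired edgeR count was 51 higher and 3 lower, beside 0.598% and 9.31% of all MEF peaks. Without library 1 or 2 edgeR called 0 site peaks and 0 of all MEF peaks, with 65 and 51 site peaks at an unadjusted p under 0.05.

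The platform ratio moved little with GC content among the sites. In 5 GC ranges holding 1454 to 1585 sites each, the median paired log2 ratio was 0.14, 0.15, 0.15, 0.15 and 0.10 from the lowest to the highest range, and over all MEF peaks in the same ranges it was 0.15, 0.15, 0.15, 0.14 and 0.0018. Spearman's rho with GC was -0.0918 across the 7658 sites and -0.578 across 61846 MEF peaks, a description over peaks that share libraries. The highest range spanned 50.8% to 68.7% GC and held 1585 sites and 28186 MEF peaks, so the range was shared but not its filling.

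**Figure D5:**
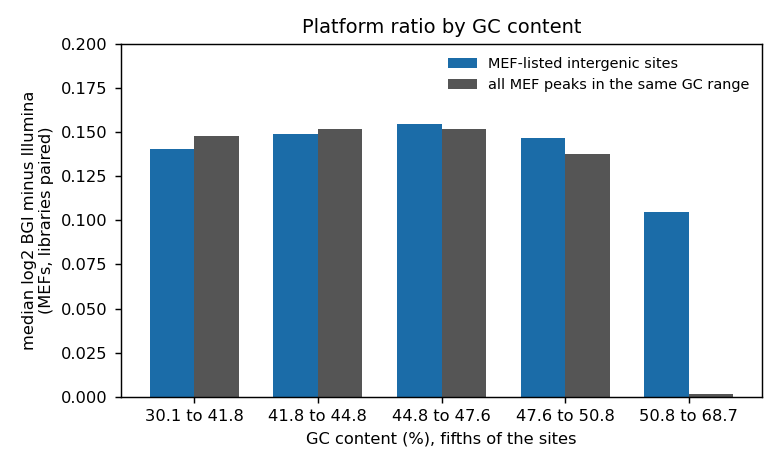
Median log2 ratio of BGI to Illumina in MEFs with libraries paired (y axis, from 0) in 5 ranges of GC content (x axis, percent), for the sites and for all MEF peaks in the same range. The sites stood at 0.10 to 0.15 throughout, whereas all MEF peaks fell to 0.0018 in the highest range.

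The site with the lowest p lay 2821 bp upstream of Trim44 (chr2:102410649-102411150), with 13.8, 12.8 and 12.6 CPM in MEFs 1, 2 and 4 on BGI and 9.44, 8.44 and 7.26 on Illumina (log2 ratio 0.63 ± 0.139 SE, edgeR adjusted p = 0.0389). All BGI values lay above all Illumina values. A site 6830 bp upstream of B4galt3 ran the other way, at 25.8, 21.0 and 24.6 CPM on BGI and 32.7, 28.6 and 35.3 on Illumina (-0.45 ± 0.114 SE, edgeR adjusted p = 0.0644), and with the replicate block its edgeR adjusted p was 2.65e-08. The site 43079 bp downstream of the TSS of Adamts1, a matrix protease gene, held 33.5, 35.1 and 35.9 CPM on BGI and 26.3, 27.4 and 29.1 on Illumina (0.32 ± 0.0797 SE, edgeR adjusted p = 0.0603). With the replicate block its edgeR adjusted p was 1.705e-05, and 0.0279 with the GC offset as well.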

How the data were processed

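The deposited count tables hold, per the labels and the study's methods, raw reads per peak without normalization. The authors aligned reads to GRCm38 (mm10) with Bowtie2, removed duplicate and mitochondrial reads, down-sampled every MEF sample to one number of reads and every mESC sample to a lower one, called peaks per sample with MACS2, kept fixed-width peaks reproducible within a group and counted reads with subread. In the deposited peak calls the authors give the summit's fold enrichment as a ratio and the −log10 of its p-value. The deposited peak lists hold positions only.

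Groups came from the sample titles. The members and gene lists were chosen with earlier results of these data known. Peaks were annotated with GENCODE M21, distances run from the peak's edge, and 1 site on a scaffold had no sequence. Count columns without a platform name were taken as Illumina and checked against summit enrichment (Spearman rho 0.704 to 0.725 per MEF library over the sites). Tests used edgeR 4.0.16 (quasi-likelihood, TMM, two-sided, adjusted p under 0.05) without pairing as the main fit, and exact permutation tests for values per sample. DESeq2 1.42.0, other scalings, filters, peak sets, a replicate block and left-out libraries were alternatives. Same-numbered MEF samples deviated together across platforms over the sites (r = 0.693 to 0.877), and the study states that they are one library. On simulated counts with 200 changed peaks the fits recovered 94.5% to 99.5% of them. The simulation held no library effect and no GC bias, so it cannot decide between the paired and unpaired platform fits.

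Named sites were the 6 highest in MEFs, the 4 with the largest cell type difference at 10 CPM or more, the 3 stretches with the most sites, up to 3 per gene list, the 3 with the lowest platform p in each direction, the 3 with the largest library spread (the smaller of the BGI and Illumina values), those nearest the distance limits and the 3 highest in mESCs. Motifs were searched on both strands as exact letters and may overlap one another.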

Additional observations from a re-analysis of the deposited data

How the results depend on the processing

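The count of site peaks called between platforms in MEFs depended most on the fit. It was 1, higher on BGI, in the unpaired edgeR fit, 52 with DESeq2, 3 with RLE size factors (2 higher and 1 lower), 2 on the BGI peak set of both cell types (0 higher and 2 lower, so that the call higher on BGI was lost), 1545 with the replicate block and 305 with the replicate block and GC offset; the cause of the first 3 changes was not tested. With a library left out it was 0 to 54 unpaired, the 54 being without MEF library 4, and 606, 675 and 811 with the replicate block. On the BGI peak set the replicate block gave 717, an alternative chosen, like the paired fits without a library, after seeing the data. The median log2 platform ratio of 0.14 stayed above 0 in each: 0.13 with DESeq2 and with RLE, 0.014 with the replicate block and GC offset, 0.092 on the BGI peak set, 0.087 there with the replicate block, 0.094 to 0.13 without a library, and 0.12, 0.13 and 0.094 without library 1, 2 or 4 in the replicate block. The median cell type difference was -3.34 when the down-sampled read number was taken as the library size. Promoters of the named genes called higher in MEFs fell from 1388 to 360 when a log2 difference of at least 1 was asked for. Requiring no loose call in any mESC sample left 4365 sites, and the share with an AP-1 match was 44.0% in the central 300 bp and 38.9% with a strong base in the middle. The platform difference in the share of reads fell from 0.849 to 0.245 percentage points with the down-sampled reads as denominator, under which both shares are smaller. At sites found by the same rule on the Illumina peak set, chosen after seeing the data, it was 0.924 points and the width difference was -33.3 bp. The other alternatives kept direction and moved these results by less than 1.5 times, the paired exact sign-flip test leaving the share at 0.849 points and the width at -32.8 bp. With 3 samples a group no exact test could pass 0.05.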
